A study of Mus musculus with 7 samples.

Results

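Day 2 embryoid bodies, the free-floating cell aggregates that stem cells form in suspension, were compared with day 0 mouse embryonic stem cells. The members were chosen by day alone, as the labels give it, and are 4 of the 7 libraries of the series, 2 from each day. Every gene above 0 in any of the 7 libraries was described, 21813 genes in all. All 7 libraries come from 1 embryonic stem cell line, Bry-GFP, which carries a green fluorescent protein reporter of the mesoderm gene Brachyury. Day 0 cells were kept on mouse embryonic fibroblast feeders, in medium with 15% fetal bovine serum and the cytokine LIF at 1000 U/mL. For day 2 the cells had been trypsinized, taken off the feeders and kept for 48 h at 75000 cells per mL in serum-free medium, with no growth factor added. The days therefore differ at once in feeders, serum, LIF, attachment and time, which cannot be told apart. Later libraries are of day 4, treated with Activin A, Noggin and Wnt3a, and of day 6, treated with these and then with bFGF. They entered only the estimate of the spread and are named here for context.

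Embryonic stem cells are held in a naive state by LIF, which acts through the receptor partner gp130 and the factor STAT3, and by signals from serum and feeders. When these are withdrawn, the cells move toward a state like the epiblast of the early embryo. From there, in medium without BMP or Wnt signals, many cells take a neural course, on which Pax, Sox, Zic and Hox factors mark positions along the head to tail axis.

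Levels are log2 of 1 plus scaled reads, a relative scale, and a difference is day 2 minus day 0 on that scale. Read depth, read from the steps between low values, was roughly 5790000 and 4640000 reads in the stem cells and 3250000 and 2790000 in the embryoid bodies. The level that 3 reads would give lay between 1.45 and 2.25 in these 4 libraries, and smaller levels carry little information. Genes with an exact 0, which may stand for a failed estimate, are called listed at 0 and get no fold. Libraries of the same day were more alike (Pearson r = 0.975 on day 0 and 0.946 on day 2, across 11800 genes, which are not independent) than libraries of different days (0.840 to 0.871). The labels call the replicates biological but name no separate cultures, so the p-values measure the spread between these libraries.

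Stem cell markers were present on both days. Of 12 markers, 1 was called higher (Lin28a) and 3 lower (Zfp42, Tdgf1, Esrrb), and the list's summed scaled reads were 17243 and 15163 on day 0 against 15002 and 13625 on day 2. Fibroblast markers were abundant on day 0 and low on day 2: 12 of 16 fell, none rose, and their sum went from 17483 and 20068 to 1809 and 1231. Macrophage markers did the same at lower levels, with 9 of 10 lower and sums of 760 and 737 against 55 and 62. Among them Fcer1g and Aif1 were listed at 0 in both day 2 libraries. Adgre1, a surface receptor that defines mouse macrophages, was at 5.67 and 5.58 in stem cells against 0 and 1.09 in embryoid bodies. None of the 14 tested muscle markers was called by limma's adjusted p (3 had an unadjusted p under 0.05), and 1 of 10 endothelial, 1 of 16 trophoblast and 3 of 18 extra-embryonic endoderm markers fell. Fewer cells of a type and less RNA per cell cannot be told apart in bulk RNA. The sources used here do not say whether feeders were still present when day 0 RNA was extracted. The part of fibroblasts and macrophages in the changes below was not tested.

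**Figure D1:**
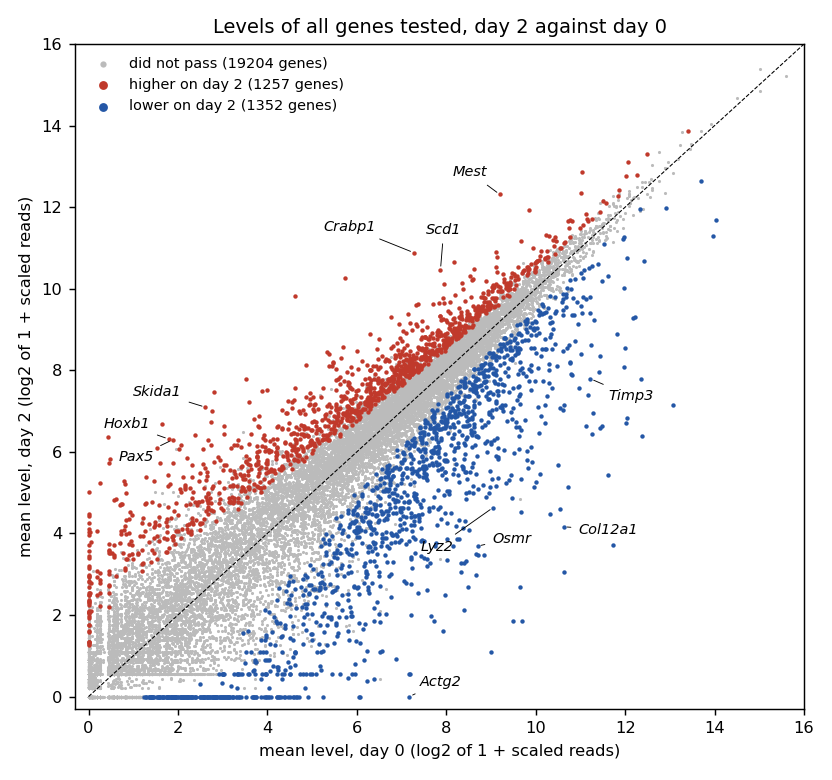
Mean level of each tested gene on day 2 (vertical axis) against day 0 (horizontal axis), both log2 of 1 plus scaled reads, over 2 libraries a day. Red points are the 1257 genes called higher on day 2 and blue points the 1352 called lower. Named genes such as Hoxb1 and Crabp1 lie above the dashed line of equal levels, and Actg2, at 0 on day 2, lies on the lower edge.

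With limma's moderated test and a Benjamini-Hochberg adjusted p under 0.05, 2609 of 21813 genes (12%) were called, and 5862 (26.9%) had an unadjusted p under 0.05. Of these 1257 were higher on day 2 (5.76% of genes) and 1352 lower (6.20%), and 824 (3.78% of genes) and 1183 (5.42%) of them changed by a log2 of at least 1. Both day 2 libraries lay above both day 0 libraries in 28.6% of genes and below them in 21.6%. The median difference was 0.050 over all genes and 0.139 over 11800 genes whose mean level over the 7 libraries reached 10 scaled reads. Of 11799 genes that reached it over these 4 libraries 9.15% were called higher and 9.06% lower. With that shift taken out, 854 genes were called higher and 1637 lower, so 65.7% of calls were lower against 51.8% before. In a fit of these 4 libraries alone 773 were higher and 1162 lower. With 3 residual degrees of freedom the count rests on every library. It was 554 and 140 without day 0 replicate 1 and 2, 305 and 396 without day 2 replicate 1 and 2, and 0 and 691 without day 4 replicate 1 and 2, while 5502 genes had an unadjusted p under 0.05 at the count of 0. Counts of called members below carry this limit too, and the range "when 1 library was left out" covers these 6 fits. No gene named below as risen or fallen changed sign when 1 library was left out.

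**Figure D2:**
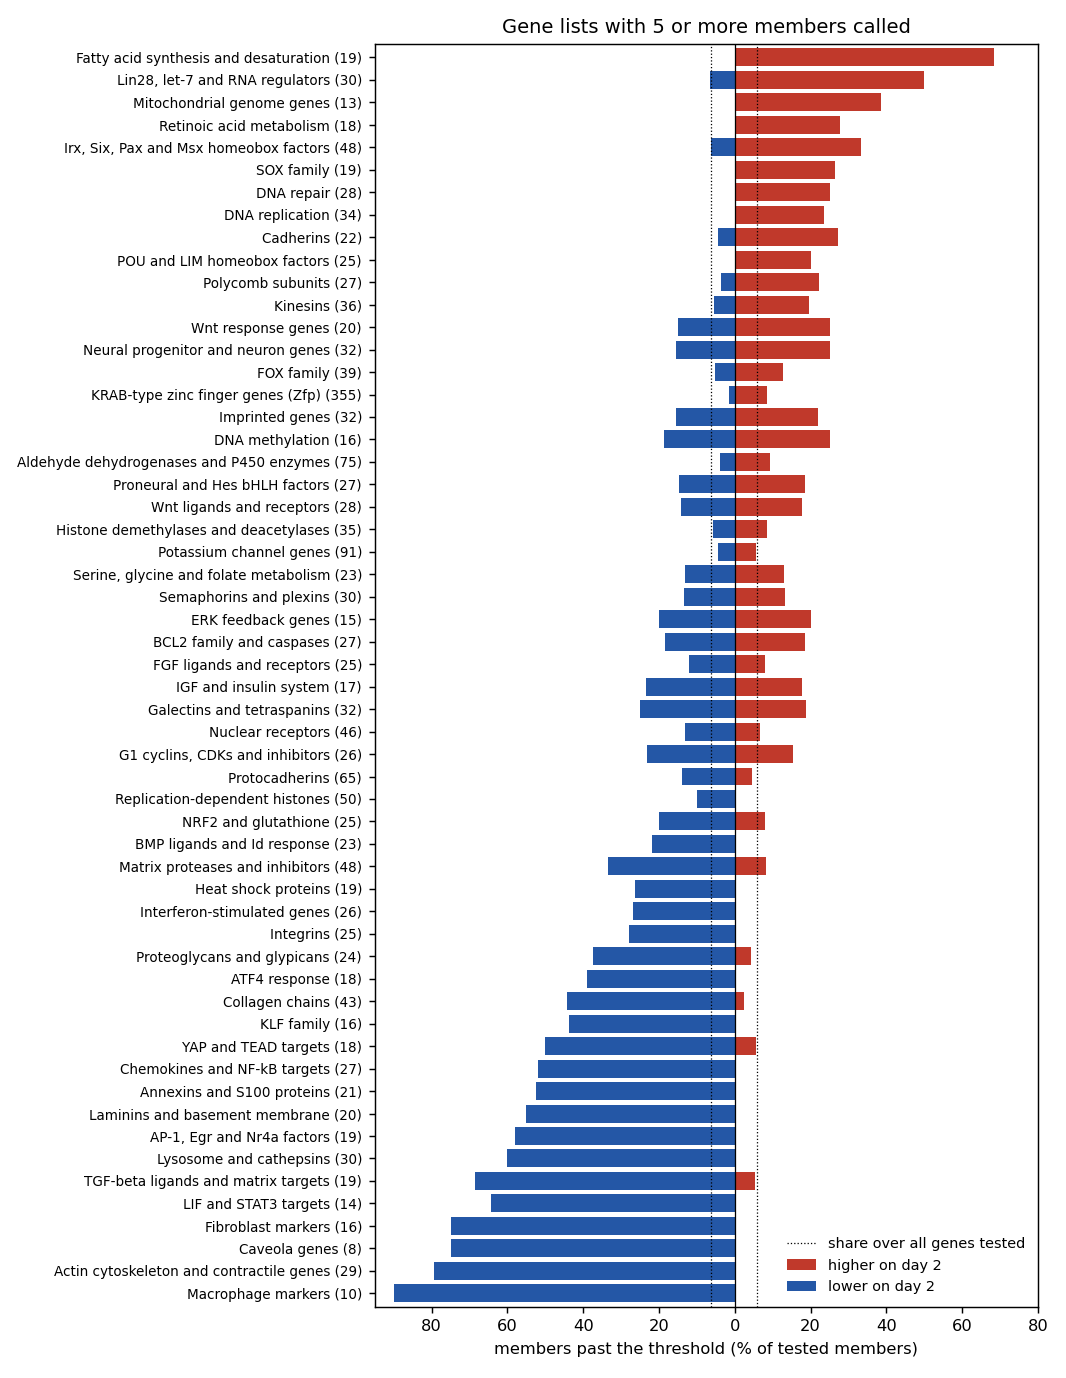
Share of tested members of each gene list called higher (red, to the right) or lower (blue, to the left) on day 2, for the lists with at least 5 members called, with the number of tested members in brackets. Dotted lines mark the share over all genes, 5.76% higher and 6.20% lower. Fatty acid synthesis leads the rises, and macrophage and contractile genes lead the falls.

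Homeobox genes of the Pax, Irx and Meis families and their relatives rose together, 16 of 48 against 3 that fell, with a median difference of 0.82 (2 to 6 called without 1 library other than day 4 replicate 1). The strongest was Pax5, a factor of the midbrain and hindbrain boundary (GRCm38 chromosome 4, 44524757 to 44710487, minus strand). It was at 1.88 and 1.87 in stem cells against 6.30 and 6.29 in embryoid bodies, a difference of 4.42 (SE 0.28, adjusted p = 0.000663). Pax8, a partner of Pax5 in that region, went from 2.34 and 2.94 to 5.52 and 5.28. En2, the engrailed factor of the same territory, went from 3.76 and 3.19 to 5.30 and 5.56. Pax7 and Pax3 mark the dorsal neural tube and neural crest. Pax7 stood at 3.02 and 2.50 in stem cells against 5.38 and 4.85 in embryoid bodies. Pax3 stood at 1.22 and 0 against 5.07 and 4.60, and its difference of 4.22 was 4.83 or 3.62 without day 0 replicate 1 or 2. In each of these genes both day 2 libraries lay above both day 0 libraries. Meis2, a cofactor of Hox proteins, rose by 1.78 (adjusted p = 0.00122), and its relative Pbx3 rose by 1.53. The 3 that fell, Prrx1 (-4.01), Alx4 (-3.60) and Dlx2 (-2.90), are factors of mesenchyme, limb or face. Prrx1 is itself a fibroblast marker here. Without day 2 replicate 1 or 2 the difference of Alx4 was -4.25 or -2.96.

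Hox genes, a family chosen after its values were seen, moved both ways. Of 37 tested 3 were called higher and 9 lower, with a median of -1.38. Hoxb1, which marks a single hindbrain segment (chromosome 11, 96365752 to 96368256, plus strand), was at 1.23 and 2.35 in stem cells against 6.21 and 6.41 in embryoid bodies (difference 4.52, SE 0.42, adjusted p = 0.0021). Hoxa2 (chromosome 6, 52162417 to 52164831, minus strand) went from 2.22 and 2.90 to 5.80 and 6.33. Hoxb3 had a smaller rise, from 4.95 and 4.48 to 6.23 and 5.64 (adjusted p = 0.0439). These 3, from the front end of their clusters, act in the hindbrain, but Hoxb2 (3.90 and 0.10 against 5.94 and 3.91), also a gene of that region, did not pass. The falls were Hoxa11, Hoxb5, Hoxb9, Hoxc5, Hoxc6, Hoxc8, Hoxd8, Hoxd10 and Hoxd13, most of them genes of the trunk and limbs. Hoxb9 went from 6.76 and 7.24 to 3.92 and 3.74 (adjusted p = 0.03) and Hoxc8 from 5.84 and 6.02 to 3.02 and 2.37. No source used here says whether counting used strand, so antisense reads in the Hox clusters cannot be told from these genes. Levels of the 3 that rose on day 4 were near or above those of day 2, with Hoxb1 at 6.03 and 5.88 and Hoxa2 at 6.84 and 6.41.

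**Figure D3:**
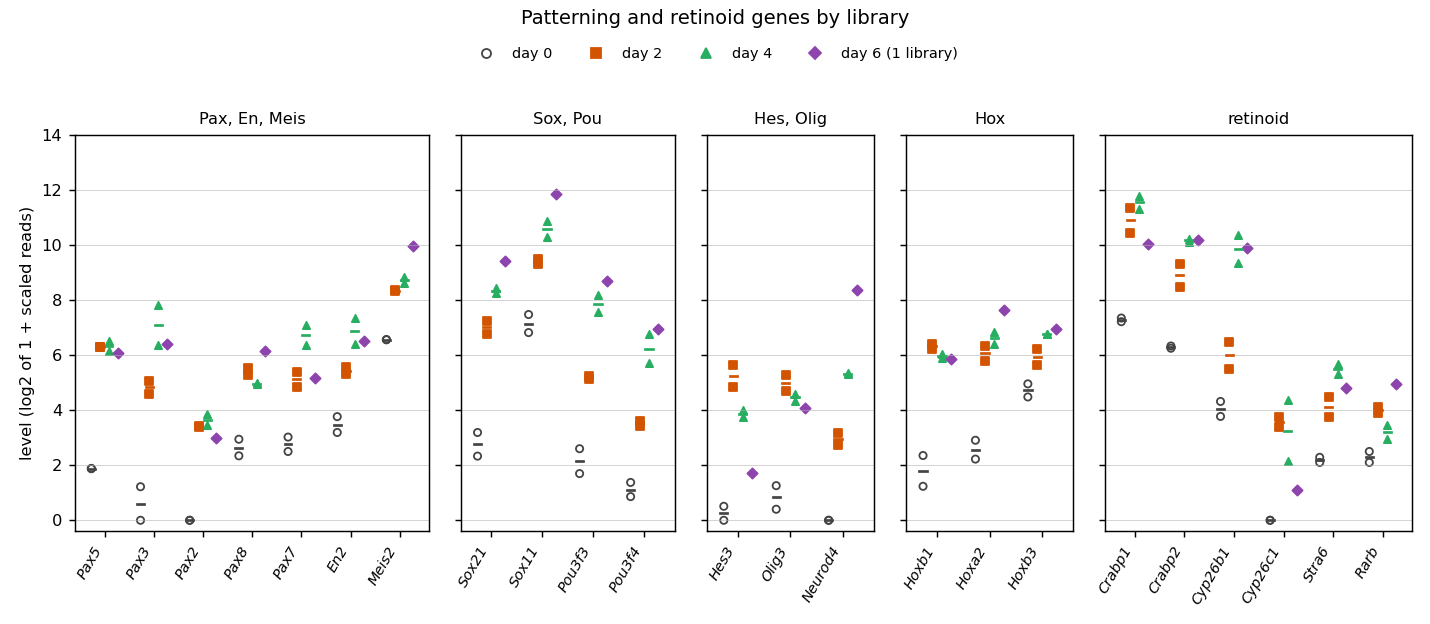
Level (log2 of 1 plus scaled reads) of patterning and retinoid genes in each library, open circles for day 0, squares for day 2, triangles for day 4 and a diamond for the single day 6 library, with a line at the mean of 2 libraries. Pax5 sits at 1.87 to 1.88 on day 0 and 6.29 to 6.30 on day 2, and Hes3 drops after day 2 to 1.72 in the day 6 library.

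Other neural transcription factors followed. Of 19 SOX genes 5 rose and none fell, the count being at most 3 when 1 library was left out. Sox21, a factor of neural progenitors, went from 2.33 and 3.19 to 7.24 and 6.76. Sox11 went from 7.47 and 6.81 to 9.29 and 9.48, and Sox13 rose by 2.10. Among the 25 POU and LIM homeobox genes 5 rose and none fell. The brain factors Pou3f3 and Pou3f4 rose by 3.03 and 2.40 (adjusted p = 0.00527 and 0.0214). Isl1, a factor of motor and sensory neurons, was listed at 0 in both stem cell libraries but at 1.86 and 2.25 on day 2, close to the level of 3 reads. Of 8 ZIC and GLIS genes 3 rose: Zic1 by 2.81, Zic2 by 1.69 and Zic5 by 1.33.

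The basic helix-loop-helix factors were mixed, with 5 of 27 higher and 4 lower. Hes3, which keeps neural progenitors of the midbrain and hindbrain from becoming neurons, was at 0 and 0.51 in stem cells against 5.63 and 4.85 in embryoid bodies. Its level then went back down, to 3.75 and 3.99 on day 4. Olig3, a dorsal hindbrain factor, went from 0.40 and 1.26 to 5.26 and 4.70. Neurod4 was listed at 0 in both stem cell libraries but at 2.73 and 3.17 on day 2, and Nhlh1 went from 0.40 and 1.26 to 3.36 and 3.38. Hes1, the general Notch target, and Bhlhe40 fell by 1.29 and 2.03, and Twist2, a fibroblast marker here, fell by 4.46. Hes5, the main Notch target of neural tissue, was listed at 0 in both stem cell libraries and 1 of day 2, at 1.70 in the other, and did not pass. In the FOX family 5 of 39 rose and 2 fell. Foxb1, a neural plate factor, was at 1.87 and 0 in stem cells against 4.16 and 4.87 in embryoid bodies (3.58, or 4.51 and 2.64 without day 0 replicate 1 and 2). Foxh1, a partner of SMAD proteins, rose by 1.05, and Foxc1, a mesenchymal factor, fell by 1.84.

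Genes of neurons themselves moved both ways. Of 32 listed, 8 rose and 5 fell. Dpysl5, a protein of growing axons, went from 5.70 and 5.05 to 8.65 and 8.15 (adjusted p = 0.00301). Nrcam, an adhesion molecule of axons, rose by 1.87 and Stmn3, a microtubule regulator, by 1.96. Gap43 (-2.27), Ncam1 (-2.25) and Vim (-3.89), also made by neural cells, fell. Vim is abundant in fibroblasts too. Nes, the intermediate filament of neural progenitors, was at 9.01 and 8.86 against 8.73 and 8.46 and did not pass (adjusted p = 0.168). The host transcript of a miR-124 gene, Mir124-2hg, chosen after its values were seen, was at 1.64 and 2.13 in stem cells against 6.07 and 5.36 in embryoid bodies (3.83, adjusted p = 0.00281). The mature microRNA was not measured.

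Retinoid handling genes rose, 5 of 18 with none lower, at a median of 0.38. In the fit of these 4 libraries alone 2 passed, and at most 2 passed when 1 library was left out. Crabp1, a cell's retinoic acid binding protein (chromosome 9, 54764748 to 54773110, plus strand), was at 7.34 and 7.21 in stem cells against 11.32 and 10.44 in embryoid bodies (3.61, SE 0.30, adjusted p = 0.00155). Crabp2, which carries retinoic acid to its receptor, went from 6.25 and 6.33 to 9.31 and 8.48. Cyp26b1, which breaks retinoic acid down, went from 3.77 and 4.31 to 6.48 and 5.50. The related Cyp26c1, not on the list, was listed at 0 in both stem cell libraries but at 3.76 and 3.38 on day 2. Stra6, a retinol uptake receptor, rose by 1.92 and Rarb, a retinoic acid receptor that is itself a target of the hormone, by 1.69. Stra8, a retinoic acid target of germ cells entering meiosis, was at 2.14 and 2.50 against 6.51 and 4.85 (3.36, or 2.54 and 4.19 without day 2 replicate 1 and 2). With Dmc1, a meiotic recombinase (2.23), it made the 2 of 26 germ line genes that rose, near the 5.76% called higher over all genes.

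Most listed genes of the LIF pathway fell. Of 14 genes of the receptor, its signal and its targets 9 fell and none rose, with a median of -1.03 (0 to 5 called when 1 library was left out). Stat3, the factor that LIF switches on, was at 9.31 and 9.60 in stem cells against 7.08 and 6.86 in embryoid bodies (-2.48, SE 0.18, adjusted p = 0.000939). Socs3, a feedback inhibitor that Stat3 induces, went from 7.55 and 7.05 to 4.52 and 4.34. The shared receptor chain Il6st and the kinase Jak1 fell by 0.97 and 0.87. Osmr, the receptor chain for oncostatin M, fell from 8.65 and 8.74 to 3.73 and 3.65. Day 0 and day 2 libraries did not overlap in any of these 5 genes. Osmr, Icam1 (-2.01) and Lif itself (-1.65) are also expressed by fibroblasts. Lifr, the LIF receptor, had a difference of -0.45 and did not pass, nor did Socs1, Socs2, Pim1 and Cish.

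Transforming growth factor beta genes fell, 13 of 19 with 1 higher, at a median of -2.81 (0 to 9 called when 1 library was left out). The ligands Tgfb2 (-1.80), Tgfb3 (-3.63), Inhba (-5.48) and Inhbb (-3.58) all fell. Without day 2 replicate 1 or 2 the difference of Tgfb3 was -4.22 or -3.04. Tgfbr2, the receptor that binds the ligand, went from 9.12 and 9.18 to 5.80 and 5.97. Tgfbr1, the receptor that passes the signal on, was the one that rose, from 8.33 and 8.33 to 9.32 and 9.29. The latent binding proteins Ltbp1 (-2.60), Ltbp2 (-4.60) and Ltbp3 (-2.78), matrix proteins of fibroblasts, fell.

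Of 23 BMP genes 5 fell and none rose. Id1, a direct BMP target, went from 7.13 and 7.29 to 4.65 and 4.34 (-2.71, adjusted p = 0.00237). Id3 went from 7.72 and 8.11 to 6.06 and 4.82, a difference of -2.48 that was -3.10 or -1.86 without day 2 replicate 1 or 2. Smad7, an inhibitor in both pathways, fell by 1.72. Bmp4, the ligand that serum and feeders can replace, was at 6.33 and 6.51 against 5.45 and 4.06 and did not pass (adjusted p = 0.0722).

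A few fibroblast growth factor genes changed, in both directions. Fgf15, of the neural plate, rose from 5.90 and 5.39 to 7.98 and 8.61, and Fgf3, of the hindbrain, rose from 2.28 and 1.26 to 5.66 and 5.21. Fgf7 and Fgf2, which fibroblasts secrete, fell by 6.62 and 3.09, and Fgf17 fell by 2.13. These were the 2 rises and 3 falls among 25 genes, and 20 were not called. Over all genes 5.76% were called higher and 6.20% lower. The feedback genes that ERK signalling induces split 3 against 3 of 15. Il17rd, Dusp4 and Spry1 rose, by 1.65, 1.03 and 0.93, and Ier3 (-2.84), Spry4 (-1.57) and Etv4 (-0.97) fell. With the median difference taken out, 1 of them rose and 3 fell.

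Wnt receptors rose while several ligands fell, 5 of 28 against 4. Fzd3, a receptor of neural tissue, went from 4.87 and 4.97 to 7.19 and 7.12 (2.23, adjusted p = 0.00282), and Fzd2, Fzd10 and Fzd7 rose by 1.49, 1.04 and 0.84. The ligand Wnt8a, of the early embryo, rose by 1.64. Wnt5a, made by mesenchyme, fell from 8.24 and 8.59 to 5.56 and 5.47, and Fzd5 fell by 1.48. Among 20 response genes 5 rose and 3 fell. Secreted inhibitors split: Sfrp2 and Sfrp1 rose by 2.72 and 1.53, while Dkk3 (-3.22) and Wif1 (-1.29) fell. Lef1, the factor that carries the Wnt signal to DNA, rose from 6.61 and 6.67 to 8.33 and 8.15. Nkd1, a feedback inhibitor, rose by 2.29. Cdx1, a caudal target, fell by 2.75, and Axin2, the general feedback target, was at 5.82 and 6.45 against 6.90 and 6.42 and did not pass (adjusted p = 0.328).

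In the Notch list 2 of 21 rose and 1 fell: Nrarp, a feedback inhibitor, by 2.74 and Dtx4 by 2.49, against Hes1. The other 18 were not called, and over all genes 5.76% were called higher and 6.20% lower. In the Hedgehog list 2 of 16 rose and 1 fell, and 13 were not called. Smo, which passes the signal on, and Sufu, an inhibitor, rose by 0.68 and 0.69. Neither was called higher once the median difference was taken out.

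Of 22 ephrins and Eph receptors, which guide cells and axons, 3 rose and 1 fell, and 18 were not called. The receptor Epha7 went from 6.17 and 5.83 to 8.59 and 8.35 (2.47, adjusted p = 0.00103) and Efnb3, a ligand, from 4.06 and 3.32 to 7.30 and 6.31. The receptor Ephb1 rose by 4.00, or by 3.31 and 4.68 without day 2 replicate 1 and 2. Epha2, a receptor of stem cells, fell by 0.72. Of 30 semaphorins and plexins 4 rose and 4 fell: Plxnc1, Sema4c, Sema6a and Sema4d against Sema3c, Nrp1, Sema3a and Plxnb2. Cadherins, which hold cells of a kind together, shifted in type, with 6 of 22 higher and 1 lower. Cdh6 went from 2.10 and 2.04 to 6.48 and 5.87 (4.10, adjusted p = 0.0019), Cdh22 from 0.40 and 0 to 4.59 and 3.53 and Cdh4 from 3.56 and 2.87 to 5.55 and 5.16. Cdh11, the cadherin of mesenchyme, fell from 10.05 and 10.36 to 6.54 and 6.86. Pcdh8, a protocadherin of the paraxial and neural tissue, was at 1.45 and 0 against 4.68 and 4.76 (3.99, or 4.72 and 3.27 without day 0 replicate 1 and 2). Of 65 protocadherins 3 rose and 9 fell, and of the falls Pcdhgb5, Pcdhga7, Pcdhgb1, Pcdhga3, Pcdhgc3 and Pcdhgc5 lie in the gamma cluster, whose members share their last exons. Crb2, a polarity protein of epithelia, rose from 1.93 and 1.26 to 5.56 and 5.92. None of 25 claudin and tight junction genes was called by limma (5 had an unadjusted p under 0.05).

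Fatty acid synthesis had the largest share of members called higher among the lists plotted. Of 19 genes 13 were called higher and none lower, with a median of 1.27 (1.14 with the median difference taken out). Leaving out 1 library gave 0 to 6 calls, and a median of 1.04 to 1.34 without 1 library of day 0 or 2. Acly, which makes the acetyl-CoA of the pathway, went from 10.81 and 10.80 to 11.87 and 11.47. Acaca, its rate-limiting carboxylase, went from 9.19 and 9.06 to 10.42 and 10.40. Fasn, the synthase, went from 10.22 and 10.24 to 11.72 and 10.91. The desaturases rose most. Scd1 (chromosome 19, 44394455 to 44407879, minus strand) was at 7.87 and 7.87 against 10.57 and 10.36 (2.60, SE 0.11, adjusted p = 0.000496). Fads2, which acts on polyunsaturated fatty acids, was at 6.75 and 6.77 against 9.56 and 9.05, and Scd2 and Fads1 rose by 1.81 and 1.83. The elongase Elovl6 and the activating enzymes Acss2, Acsl3 and Acsl4 rose by 1.07, 1.57, 1.48 and 1.30. One called member, Mvk (1.41), belongs to the sterol branch. Srebf2, the sterol-responsive factor (outside the list), rose by 1.08. Srebf1, its fatty acid counterpart, was at 6.13 and 6.26 against 7.48 and 5.91 and did not pass (adjusted p = 0.575). In the 250 bases before the start site, the letters CCAAT were in 9 of 15 of these genes, in 4 of the 10 called among them and in 39.5% of 14159 tested genes. TCACNCCAC was in none of the 15 (1.29% of tested genes), both strands read.

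**Figure D4:**
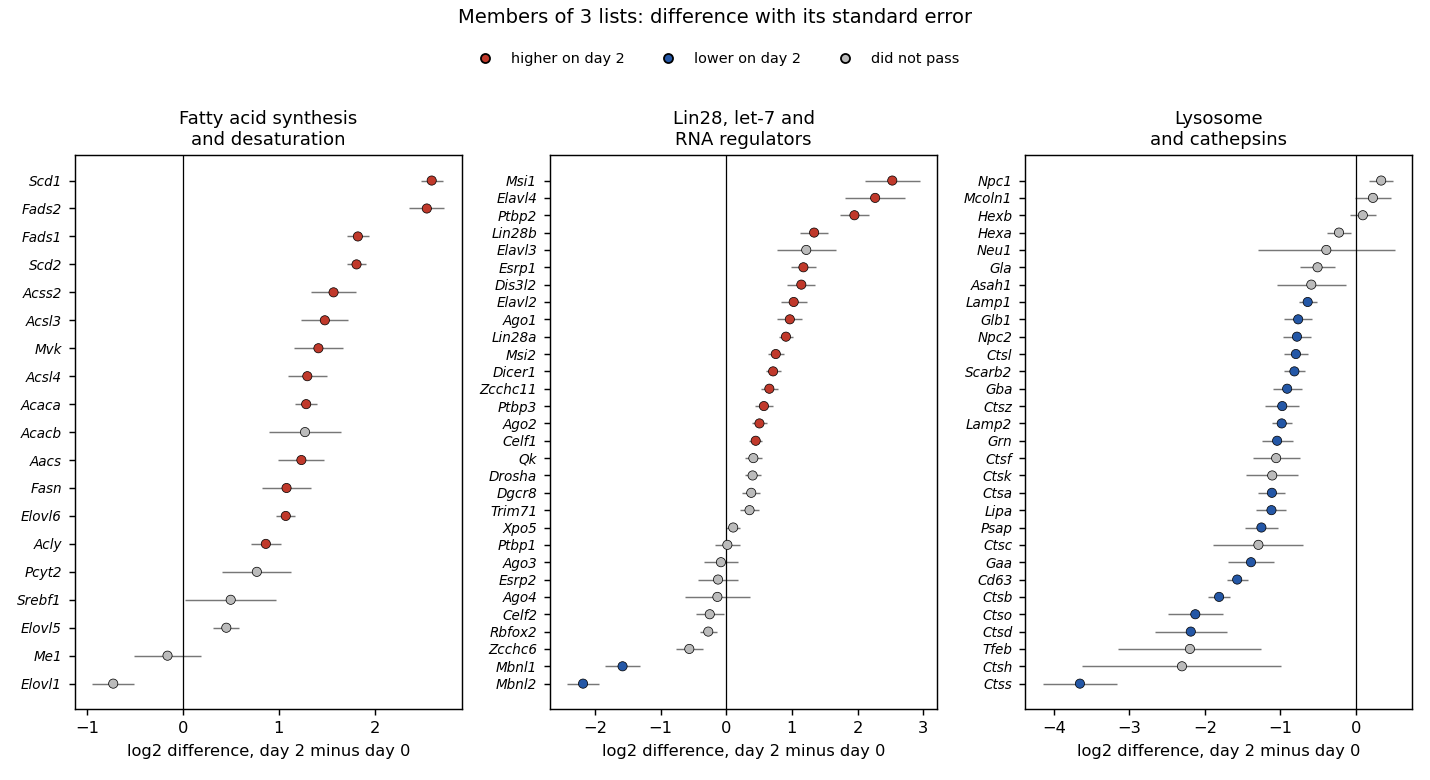
Difference (log2, day 2 minus day 0) of each tested member of 3 lists, with bars of 1 standard error from the fit. Red points were called higher, blue points lower and grey points did not pass. Scd1 at 2.60 leads the fatty acid genes, Mbnl2 at -2.18 stands lowest among the RNA regulators, and Ctss at -3.66 is lowest among the lysosome genes.

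The other fuel pathways changed little. In fatty acid oxidation Cpt1a, the gate to the mitochondrion (-1.82), and Acadvl (-1.79) fell, and Hadh and Echs1 rose by 0.72 and 0.71 (2 each way of 20). The isocitrate dehydrogenases Idh1 and Idh2 rose by 1.25 and 0.75, the 2 calls among 23 tricarboxylic acid cycle genes. Glycolysis had 1 rise (Pfkm, 0.90) and 1 fall (Pfkp, -1.13) of 23, and with the median difference taken out 1 and 4. The largest difference in that list, -4.02 in Gapdh, did not pass. In one-carbon metabolism 3 of 23 rose and 3 fell. Tdh, the threonine dehydrogenase of mouse stem cells, went from 10.06 and 9.95 to 8.96 and 8.78, while Gldc, which cleaves glycine, went from 9.92 and 9.51 to 10.49 and 10.38. None of 73 nuclear respiratory chain genes, 39 proteasome subunits or 79 cytosolic ribosomal protein genes was called by limma, with 7, 3 and 8 at an unadjusted p under 0.05. Ribosomal protein genes have many near-identical copies, and single values among them are uncertain.

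Of the 13 protein genes of the mitochondrial genome 5 were called higher and none lower, at a median of 0.67. The nuclear respiratory chain genes had a median of 0.005. The calls were mt-Nd2 (1.04), mt-Nd6 (0.92), mt-Nd4l (0.82), mt-Nd5 (0.81) and mt-Cytb (0.46). mt-Nd2 was at 12.06 and 12.06 against 12.98 and 13.23, and mt-Cytb at 13.44 and 13.39 against 13.87 and 13.87. mt-Co1, at 15.19 and 14.85 against 15.19 and 15.59, did not pass, and at the top of the quantile scale a gene can take only the fixed level of its rank. The count was 0 to 5 when 1 library was left out and 4 with the median difference taken out.

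Growth factor binding and imprinted genes, which are read from 1 parental copy, shared several large changes. Igfbp5, which binds insulin-like growth factors, went from 5.65 and 5.82 to 10.62 and 9.91 (4.53), while Igfbp7 (-5.37) and Igfbp3 (-2.0) fell. Irs4, an adaptor of the insulin receptor, rose by 2.48 and Igf2bp3, which binds Igf2 RNA, by 1.66. Of 32 imprinted genes 7 rose and 5 fell (0 to 4 called when 1 library was left out). Mest, read from the paternal copy (chromosome 6, 30723547 to 30748465, plus strand), was at 9.17 and 9.22 against 12.54 and 12.08 (3.12, SE 0.16, adjusted p = 0.000496). Peg12 went from 4.59 and 4.05 to 7.13 and 6.94 and Nnat from 6.42 and 6.50 to 8.75 and 8.30. Magel2, Snurf and Snrpn, neighbours of Peg12 on chromosome 7, rose by 1.70, 1.09 and 0.93. The falls were Dlk1 (-2.18), Igf2 (-1.85), H19 (-1.64), Igf2r (-0.88) and Grb10 (-0.76). Igf2 and H19 share an enhancer and were both high on day 0, with Igf2 at 10.30 and 10.43 and H19 at 11.32 and 10.76. Meg3, of the Dlk1 region, was at 11.12 and 11.01 against 10.81 and 10.76 and did not pass (adjusted p = 0.136).

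Chromatin genes showed exchanges within families. The new DNA methyltransferases Dnmt3a and Dnmt3b rose, the former from 8.97 and 9.25 to 10.69 and 10.39 and the latter from 11.03 and 11.01 to 12.26 and 12.42. Their cofactor Dnmt3l fell from 9.16 and 9.80 to 8.25 and 8.23. The oxidase Tet2 fell by 1.09 and its relative Tet3 rose by 1.01, and the imprint guardian Zfp57 fell by 0.98. Of 16 DNA methylation genes 4 rose and 3 fell. Polycomb genes, which silence developmental genes, had 6 of 27 higher and 1 lower, and 4 and 1 with the median difference taken out. Phf19, which recruits the complex, and Cbx2, which reads its mark, rose by 2.00 and 1.71, Ezh2, the enzyme, rose by 0.69, and Eed fell by 0.64. Among 35 histone demethylases and deacetylases 3 rose, 2 fell and 30 were not called, near the 5.76% higher and 6.20% lower of all genes. Kdm2b and Kdm7a, demethylases, rose by 1.22 and 1.16. Skida1, a nuclear protein gene with one of the largest rises, went from 2.49 and 2.74 to 7.06 and 7.12. Among 355 Zfp-named genes, most of them zinc finger factors, 30 rose and 5 fell (8.45% and 1.41%, against 5.76% and 6.20% of all genes). With the median difference taken out, 18 rose and 6 fell. Of the 307 whose mean over the 4 libraries reached 10 scaled reads, 28 rose and 5 fell. Over all such genes 9.15% rose and 9.06% fell, so the list stood apart in its few falls and not in its rises.

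RNA regulators rose as a group, 15 of 30 against 2, with a median of 0.48. The numbers were 11 and 2 with the median difference taken out, and at most 3 were called when 1 library was left out. Lin28a and Lin28b, which block the making of let-7, rose by 0.91 and 1.34. Zcchc11 and Dis3l2, which tail and destroy let-7 precursors, rose by 0.66 and 1.14. Dicer1, Ago1 and Ago2, of the microRNA machinery, rose by 0.71, 0.97 and 0.51. Among splicing factors Ptbp2, the neural form, went from 7.42 and 6.97 to 9.04 and 9.26 (1.95, adjusted p = 0.00411). Its general form Ptbp1 was at 10.40 and 10.54 against 10.76 and 10.21 and did not pass. Msi1 and Elavl4, of neural cells, rose by 2.53 and 2.27, and Esrp1, of epithelia, rose by 1.18. The 2 that fell, Mbnl2 from 9.10 and 9.41 to 6.89 and 7.25 and Mbnl1 from 7.58 and 8.19 to 6.13 and 6.48, promote splice forms of differentiated cells.

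Cell cycle genes changed by small amounts except at the entry to the cycle. Ccnd2, a cyclin of G1 phase, went from 10.64 and 10.82 to 8.81 and 8.41, and Ccnd1 and Ccnd3 fell by 1.28 and 0.90. The inhibitor Cdkn2b fell by 3.0, and Cdkn1b rose by 0.89. Of 26 such genes 4 rose and 6 fell. Of 34 DNA replication genes 8 rose, of 28 repair genes 7 rose and none fell, with medians of 0.36 and 0.53. With the median difference taken out, 3 and 1 rose, and in the fit of these 4 libraries alone 3 and 3. The largest of these was Xrcc3, a recombination protein, from 4.44 and 4.57 to 6.29 and 6.12. Of 36 kinesins, the motors of microtubules, 7 rose and 2 fell, at a median of 0.36. Kif4 and Kif15, of mitosis, rose by 0.97 and 0.77 and the axon motors Kif21a and Kif1a by 1.51 and 1.21, while Kif26b (-2.85) and Kif1c (-0.86) fell. Among cell death genes 5 of 27 rose and 5 fell. Bmf, a killer protein released by loss of attachment, went from 5.01 and 5.05 to 7.70 and 6.99 (2.31, adjusted p = 0.00397). The initiator Casp9 rose by 1.26, and Casp8 (-1.55) and Casp12 (-2.84) fell. The survival genes Mcl1 and Bcl2l1 fell by 0.71 and 0.84.

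Contractile genes had the largest share of members called lower outside the marker lists. Of 29 genes 23 fell and none rose, with a median of -1.70 (0 to 12 called when 1 library was left out). Promoters of Actg1 and Myl9 are shown because they hold a CArG box, the motif of the actin-responsive factor SRF. The motif, the letters CC, then 6 of A or T, then GG, was in 28.0% of the 25 list promoters found in RefSeq (7 genes, 5 of them among the 20 called) and in 1.52% of those of 14159 tested genes. Bases are 5′ to 3′ on the gene's strand (RefSeq, GRCm38.p6), and capitals mark the motif. The Actg1 stretch is chr11:120348526-120348645 on the minus strand, and the motif runs from 90 to 81 bases before the start site. The Myl9 stretch is chr2:156775243-156775362 on the plus strand, with the motif 161 to 152 bases before the start.
Actg1: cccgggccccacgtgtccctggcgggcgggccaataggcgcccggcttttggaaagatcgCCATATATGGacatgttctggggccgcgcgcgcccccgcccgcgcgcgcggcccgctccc
Myl9: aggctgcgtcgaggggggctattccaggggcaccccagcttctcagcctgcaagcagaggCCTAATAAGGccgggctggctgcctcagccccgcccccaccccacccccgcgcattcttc

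Actg1, the cytoplasmic gamma actin that every cell makes, was at 13.63 and 13.77 in stem cells against 12.84 and 12.44 in embryoid bodies (-1.06, adjusted p = 0.00609). Actb, its beta partner, was at 12.47 and 12.62 against 12.60 and 11.92 and did not pass. Myl9, a myosin light chain of contractile cells, was at 8.31 and 8.57 against 5.36 and 4.64 (-3.44, adjusted p = 0.0175). Actg2, a smooth muscle actin, was at 6.97 and 7.38 on day 0 and listed at 0 in both day 2 libraries. Tpm1 and Cald1, which regulate actin and myosin, fell by 3.40 and 3.46, and the ubiquitous Flna, Actn4 and Myl6 fell by 0.69, 0.69 and 1.01. In each of the genes called here both day 2 libraries lay below both day 0 libraries.

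**Figure D5:**
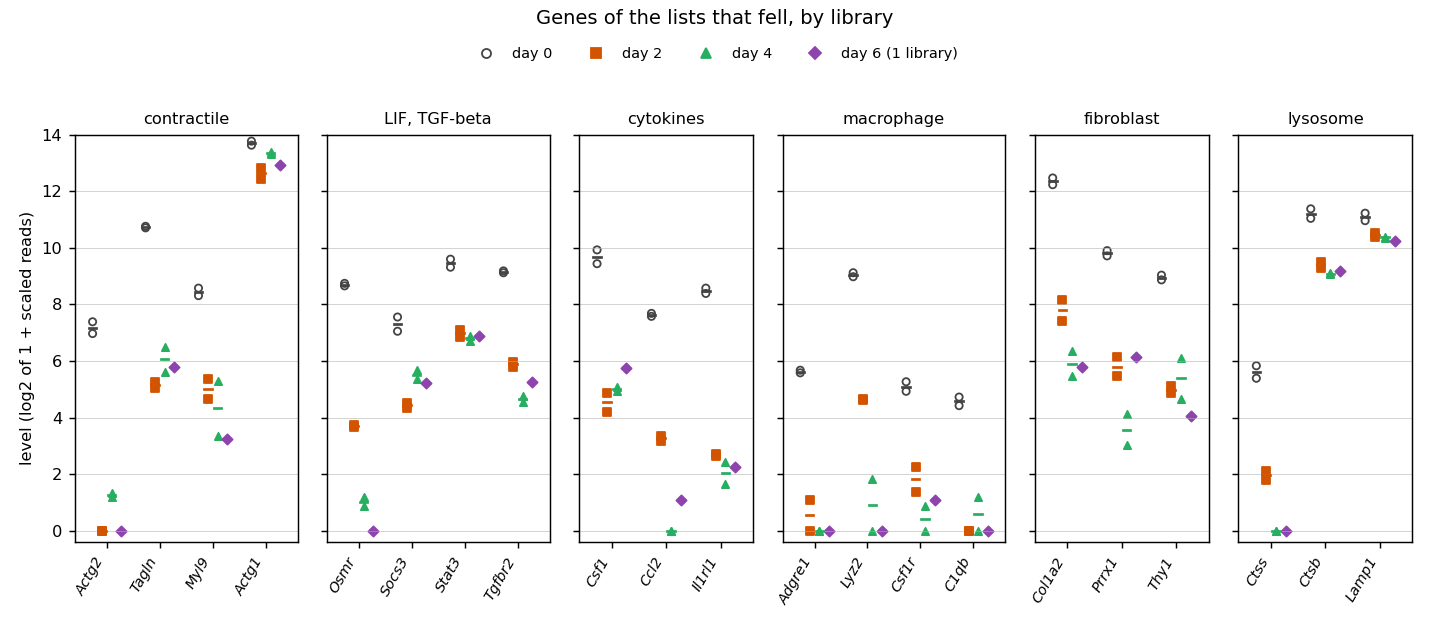
Level (log2 of 1 plus scaled reads) of 21 genes of the falling lists in each library, with symbols by day and a line at the mean of 2 libraries. Day 2 libraries lie below day 0 libraries for each gene shown. Osmr, Ccl2 and Ctss stood lower still on day 4, while Lamp1 and Stat3 stayed near their day 2 level.

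The matrix fell with it. Collagen chains had 19 of 43 lower and 1 higher, laminin and basement membrane genes 11 of 20 lower, and proteoglycans 9 of 24 lower and 1 higher. Col12a1, a collagen that decorates fibrils, was at 10.51 and 10.73 against 3.83 and 4.49 (-6.46, adjusted p = 0.000589). Fn1, fibronectin, was at 13.87 and 14.08 against 11.62 and 10.97, and Bgn, a small proteoglycan, at 12.04 and 12.70 against 6.22 and 6.54. The laminin chains Lamc1 (-0.80) and Lamb1 (-1.50) fell. The exceptions were Col2a1, a collagen of cartilage and of the neural tube's surroundings, and Gpc3, a glypican of the embryo. Col2a1 went from 4.59 and 5.14 to 8.79 and 7.45 (3.25, or 2.59 and 3.92 without day 2 replicate 1 and 2), and Gpc3 rose by 0.90.

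Of 48 matrix proteases and inhibitors 16 fell and 4 rose (0 to 12 called when 1 library was left out). Timp3 and Timp2, inhibitors of metalloproteases, went from 11.24 and 11.20 to 7.70 and 7.89 and from 11.23 and 11.58 to 8.09 and 7.84. Mmp13, a collagenase, was at 4.06 and 4.37 on day 0 and listed at 0 in both day 2 libraries. Mmp13's promoter is shown because it holds TGANTCA, the site of AP-1, which was in 25.0% of 32 list promoters (4 of the 13 called) and 6.46% of all. It is chr9:7272394-7272513, plus strand, with the motif in capitals 35 to 29 bases before the start.
Mmp13: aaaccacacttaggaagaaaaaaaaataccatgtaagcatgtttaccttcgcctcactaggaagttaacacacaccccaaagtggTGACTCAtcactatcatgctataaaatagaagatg
The 4 that rose were Timp4, Adamts15, Adamts3 and Mmp25, by 3.36, 2.39, 1.88 and 1.41. Timp4, the fourth inhibitor of its family, was at 1.13 and 0.51 against 4.36 and 3.99, opposite to Timp1 (-4.09), Timp2 and Timp3.

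Genes of the YAP pathway, caveolae, annexins, S100 proteins and integrins were also among the falls. Of 18 targets and members of the YAP pathway, which reads stretch and density, 9 fell and 1 rose. Cyr61 went from 10.06 and 9.97 to 5.07 and 5.46 (-4.75, adjusted p = 0.000643) and Ctgf from 9.65 and 9.59 to 6.39 and 6.36. Tead2, the DNA-binding partner in embryonic cells, was the rise, from 7.95 and 7.92 to 9.35 and 9.17, and Yap1 itself did not pass. GGAATG, the letters bound by TEAD factors, was in 66.7% of 12 list promoters (5 of the 8 called) and 13.4% of all. Caveola genes, which form pits of the cell membrane, had 6 of 8 lower at a median of -4.04, and Cav1 went from 9.81 and 10.10 to 5.21 and 5.05. Of 21 annexins and S100 proteins 11 fell, among them Anxa2 (-4.82) and S100a6 (-4.84). Of 25 integrins 7 fell and none rose. Itgb1, the common beta chain, went from 11.89 and 12.04 to 9.82 and 10.19, and Itga5, its fibronectin partner, from 9.52 and 9.79 to 7.65 and 7.18.

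Inflammatory genes were lower in the embryoid bodies. Of 27 chemokines and NF-kB targets 14 fell and none rose, at a median of -2.05 (0 to 6 called when 1 library was left out). Csf1, the growth factor of macrophages, was at 9.44 and 9.93 in stem cells against 4.86 and 4.21 in embryoid bodies (-5.14, adjusted p = 0.000614). Il1rl1, the interleukin 33 receptor, went from 8.38 and 8.57 to 2.63 and 2.73, and Ccl2 from 7.58 and 7.68 to 3.36 and 3.17. The complement genes C1qa, C1qb and C1qc, made by macrophages, were at 3.87 to 4.72 on day 0 and at 0 to 1.09 on day 2. They were 3 of the 4 falls among 16 complement genes.

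Interferon genes fell, 7 of 26 with none higher, and their day 0 libraries differed from each other. Promoters of Isg15 and Ifit3 are shown because they hold the core of the interferon response element, GAAA, any 2 bases, GAAA, which on either strand was in 39.1% of 23 list promoters (3 of the 4 called) and 3.21% of all. Isg15 is chr4:156200825-156200944, minus strand, and Ifit3 chr19:34583347-34583466, plus strand. In capitals, Isg15 holds 3 overlapping copies and Ifit3 holds 2, on the other strand.
Isg15: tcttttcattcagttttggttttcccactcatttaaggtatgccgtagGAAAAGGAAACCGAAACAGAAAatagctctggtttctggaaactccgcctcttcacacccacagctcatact
Ifit3: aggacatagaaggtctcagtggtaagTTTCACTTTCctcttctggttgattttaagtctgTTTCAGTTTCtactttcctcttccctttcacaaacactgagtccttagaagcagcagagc
Isg15, a ubiquitin-like protein, was at 4.64 and 6.45 in stem cells against 1.08 and 1.87 in embryoid bodies. Its difference of -4.07 was -4.97 or -3.17 without day 0 replicate 1 or 2. Ifit3, which binds viral RNA, was at 4.34 and 5.89 against 1.08 and 1.09 (-4.03, or -4.80 and -3.26 likewise). Ifit1 and Usp18 showed the same order, with day 0 replicate 2 higher than replicate 1 by over 2 on the log2 scale. Their differences were -4.70 or -2.23 and -4.69 or -2.36 without day 0 replicate 1 or 2. Ifitm3 fell by 1.98. At most 1 gene of the list was called when 1 library was left out. B2m, the light chain of MHC class I, fell by 2.31, while H2-K1 rose by 0.89 and H2-D1 fell by 1.03. These MHC genes have near-identical relatives, and their values are uncertain.

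Lysosome genes fell in number more than in size, 18 of 30 with none higher, at a median of -1.01 (0 to 5 called when 1 library was left out). Ctsb, a protease that most cells make, was at 11.04 and 11.38 against 9.49 and 9.30 (-1.81, adjusted p = 0.00148). Lamp1 and Lamp2, membrane proteins of every lysosome, fell by 0.64 and 0.98, and Psap and Grn by 1.25 and 1.04. Ctss, of macrophages, fell most, from 5.39 and 5.83 to 2.12 and 1.79. TCACGTGA, a site of the lysosome regulator TFEB, was in 16.7% of 24 list promoters (2 of the 16 called) and 1.33% of all. Tfeb itself did not pass, and Npc1, the cholesterol exporter of the lysosome, had a difference of 0.34 and did not pass. In the antioxidant list, 5 of 25 fell and 2 rose: Gpx8 (-2.84), Gpx3 (-1.38) and Hmox1 (-1.13) fell, Sod3 was listed at 0 on day 2 after 4.69 and 4.49, and Gsr and Cat rose by 0.79 and 0.58.

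Among stress and early response genes some lists fell, and others stood near the share over all genes, of which 6.20% were called lower. The amino acid transporters and the unfolded protein response were near that share. Of 18 genes of the amino acid response 7 fell and none rose, at a median of -1.04 (0 to 2 called when 1 library was left out). Atf4, its main factor, went from 10.01 and 10.03 to 9.29 and 9.09, Atf5 fell by 1.98 and Ppp1r15a, which ends the response, by 1.51. Atf3 was at 6.41 and 6.09 against 1.70 and 3.67 (-3.57, or -2.59 and -4.55 without day 2 replicate 1 and 2). Slc7a1, the arginine carrier, went from 9.27 and 9.06 to 7.52 and 7.48, the 1 call among 22 amino acid transporters. Of 19 heat shock genes 5 fell, among them Hspb8 (-2.05) and the collagen chaperone Serpinh1 (-1.43), and 1 of 18 genes of the unfolded protein response fell. Of 20 genes of the response to low oxygen 3 fell and none rose, at a median of -0.008. Vegfa (-1.78), Adm (-2.88) and P4ha1 (-1.40) fell, while Slc2a1 was at 10.05 and 9.87 against 10.88 and 10.23 and did not pass. Nr4a1, an early response receptor, fell by 2.72 and Fosl2, of AP-1, fell by 4.11 (-3.44 or -4.78 without day 2 replicate 1 or 2). They were among 11 falls in 19 genes of the AP-1, Egr and Nr4a families. Of 16 KLF factors 7 fell and none rose, with Klf6 at -1.77, Klf2 at -1.25 and Klf9 at -0.93 among those outside the naive core.

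Some genes were read on 1 day alone, in libraries of unlike depth. The level that 1 read would give was 0.40 and 0.51 in stem cells but 1.08 and 1.095 in embryoid bodies. Counts of such genes in the 2 directions are therefore not like for like. There were 11 listed at 0 in both stem cell libraries but at 3 or more in both of day 2, and 38 the reverse. Among the former were Casr, the calcium-sensing receptor (4.70 and 4.13 on day 2), Edn3, an endothelin of neural crest (4.24 and 4.26), Gabrg1, a neurotransmitter receptor chain (3.58 and 4.64), and Pkd2l1, a channel of spinal fluid-contacting neurons (4.87 and 3.17). Among the latter were Itga11, a collagen receptor of fibroblasts (6.04 and 6.10 on day 0), Sprr2k, a cornified envelope gene (6.26 and 5.85), and Kcnab1, a potassium channel chain (4.30 and 5.12). Mib2 and Fbxl4 also belong there, at 5.20 and 4.60 and at 4.44 and 6.05 on day 0. Both were listed again on day 4, Mib2 at 5.41 and 4.93 and Fbxl4 at 3.94 and 5.49, so their zeros on day 2 may be failed estimates.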

How the data were processed

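Polyadenylated RNA was sequenced from stranded mRNA libraries, per the labels' protocols. The authors deposited 1 table of 30590 rows with natural log values for the 7 libraries (7 value columns, 0 unmapped). The unit, the natural log of 1 plus scaled reads, was inferred from the steps between low values. Over the top 9896 ranks all columns hold the same sorted values to within 0.01, so the deposited values were quantile normalized. Per the submitters' processing notes, the genome was GRCm38. No source used here names the aligner or annotation, or says whether counting used strand.

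Levels were divided by the natural log of 2. Left out were 103 rows of foreign sequence and 8674 genes at 0 in every library. The 21813 other genes were tested with limma-trend and robust moderation (limma 3.58.1, R 4.3.3), with 1 mean per day over 7 libraries, 3 residual degrees of freedom and p-values adjusted by Benjamini-Hochberg (called under 0.05). The script was tested on simulated data. Adding 1 to scaled reads makes the differences of low genes too small. Rough depth was 2790000 to 5790000 reads, and 3 reads gave a level of 1.45 to 2.30. Exact permutation of 2 against 2 libraries cannot reach the threshold, so single values have no such test.

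The libraries compared and 88 gene lists, by symbol or symbol pattern, were chosen with earlier results of these data known, and promoter motifs after the list counts were seen. Lists are described by counts of called members and medians and have no test. Named are, per list, up to 4 called members with the largest rise and up to 4 with the largest fall, the largest changes of all genes, the most abundant called genes, genes listed at 0 on 1 day, and marker genes. Other members are given to describe their list. Gene positions are from GENCODE, matched by symbol for 20614 genes, and promoters from RefSeq. Some members of the lists are not reported here. Alternatives were a replicate block, fewer libraries, a mean-level filter, another pseudocount, other centrings, no robust option and leaving out each replicate.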

Additional observations from a re-analysis of the deposited data

How the results depend on the processing

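The count of 2609 called genes lay between 1935 and 2950 over the settings that left out no single replicate. It was 1935 in the fit of them alone (773 higher, against 1257), 2871 for days 0, 2 and 4, 2950 for genes whose mean reached 10 scaled reads, 2673 with a pseudocount of 5, 2603 with levels centred on the median and 2037 without the robust option. With levels centred on the median difference, a setting chosen after seeing the data, it was 2491. The share of lower calls was 51.8% in the main setting, 60.1% in the 4 libraries alone, 43.3% with the mean-level filter and 65.7% with the median difference taken out. Leaving out each replicate in turn gave 0 to 691 called genes, 0 to 237 higher and 0 to 454 lower. The fit without day 4 replicate 1 gave 0, with 5502 genes at an unadjusted p under 0.05. Of 399 genes that the naming rule picks, 302 to 397 kept their call in the settings with all replicates other than the mean-level filter, which kept 314 and lost 1, the rest not being tested there. None of the 399 reversed in any setting.

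With the replicate number as a block, 2243 genes were called, 1038 higher and 1205 lower, and 353 of the 399 kept their call. The numbers are shared by name only. Same-numbered libraries of days 0 and 2 did not deviate together (correlation of their deviations -0.0582 across 11800 genes), so they were not treated as pairs.

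Depth limits the low genes: day 2 libraries held fewer reads than day 0 libraries, and a level under about 2.25 there is worth fewer than 3 reads.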

Other observations

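Genes of the X chromosome stood somewhat above the autosomes. Of 395 X-linked genes whose mean level over the 4 libraries reached 10 scaled reads, 56 were higher on day 2 and 31 lower, against 9.15% and 9.06% of all 11799 such genes. Their median difference was 0.264, while the medians of the 19 autosomes ran from 0.067 to 0.170. Among the X-linked rises were Irs4 (2.48), Sms, which makes spermine (1.16), Acsl4 (1.30) and Tspan7 (1.09), chosen after their values were seen. Sat1, which breaks polyamines down, fell by 1.46. The 8 Y-linked genes at that level had a median difference of 0.676, and none was called higher. One of them, Kdm5d, fell, from 5.46 and 5.29 to 3.92 and 3.76. Eif2s3y was at 7.97 and 7.36 against 8.28 and 8.40 and did not pass.

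Potassium channel genes were called on both sides, 5 of 91 higher and 4 lower, close to the shares over all genes. Kcnh2, of the heart's repolarizing current, rose from 3.07 and 2.77 to 5.13 and 5.38, and Kcnj15 fell from 6.53 and 6.39 to 3.24 and 1.38 (-4.15, or -5.08 and -3.22 without day 2 replicate 1 and 2).

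Lars2, the mitochondrial leucine tRNA synthetase gene, stood at 12.84 and 12.98 in stem cells against 11.89 and 12.09 in embryoid bodies (-0.92, adjusted p = 0.0035), and at 12.84 and 12.84 on day 4. Among the most abundant genes that rose were Hnrnpa1, a splicing factor, from 12.10 and 11.93 to 12.62 and 12.91, Nap1l1, a histone chaperone, from 12.36 and 12.16 to 12.70 and 12.88, and Nasp, another histone chaperone, from 12.02 and 11.71 to 12.34 and 12.49.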
